A study of Mus musculus with 16 samples.

Results

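The genes described here carry the IFNγ signal from the cell surface to the nucleus and switch it off again. They are 9 genes chosen by symbol, Ifngr1, Ifngr2, Jak1, Jak2, Stat2, Stat3, Socs1, Socs3 and Ptpn2, and all 9 were found in both deposited count tables, which hold 55414 named genes in one and 56980 in the other. All 9 also passed the filter on low counts in both tables. RNA-seq was performed on KPC1199, a murine pancreatic ductal adenocarcinoma cell line from the KPC mouse model, in 16 libraries that fall into 6 groups. Cells carried either a non-targeting guide (sgCtrL, labelled WT) or a guide against Sin3B (Sin3Bsg1, labelled Sin3B Knockout), a corepressor scaffold that binds histone deacetylases, both delivered with Cas9 by lentivirus. In a first experiment the untreated cells gave 2 libraries per genotype. A second experiment gave 3 libraries per genotype without IFNγ and 3 with IFNγ at 10 ng/ml for 24 h. All 6 groups thus share the tumor line and the Cas9 vector. The sources do not say whether the edited cells are a clone or a pool, and neither a second Sin3B guide nor another cell line was sequenced here. The labels do not say that replicates came from separate cultures, so the p-values measure only the spread between these libraries.

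IFNγ binds a receptor of IFNGR1 and IFNGR2 chains, to which the kinases JAK1 and JAK2 are attached. The kinases phosphorylate the receptor and then STAT transcription factors, which move to the nucleus and bind GAS elements. STAT2 acts with IRF9 at interferon-stimulated response elements (ISRE), while STAT3 is best known as the factor of the IL-6 family, whose receptors share gp130. SOCS1 is an inhibitor of JAK catalytic activity, SOCS3 acts mainly on receptors that hold gp130, and PTPN2 is a tyrosine phosphatase that removes phosphate from JAKs and STATs. In tumor cells this pathway drives antigen presentation and the T cell chemokines.

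Promoter sequence was read for the genes with the largest response to IFNγ, Socs1 and Stat2, and for Socs3, a gene of the same family as Socs1 with another response. RefSeq windows (GRCm38.p6, matched by symbol) were found for 8 of the 9 genes. The 250 bases before the annotated start were searched on both strands for a GAS-type motif, TTCNNNGAA, and an ISRE-type motif, GAAANNGAAA, and matches are in capitals. Each line reads 5′ to 3′ on the strand of the gene.
Socs1 (chr16:10785537-10785786, minus strand): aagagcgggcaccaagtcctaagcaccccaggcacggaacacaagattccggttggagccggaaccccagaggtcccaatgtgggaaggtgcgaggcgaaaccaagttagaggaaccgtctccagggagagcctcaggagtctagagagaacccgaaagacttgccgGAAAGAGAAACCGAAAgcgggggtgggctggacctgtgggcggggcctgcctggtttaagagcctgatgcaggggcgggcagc
Stat2 (chr10:128270248-128270497, plus strand): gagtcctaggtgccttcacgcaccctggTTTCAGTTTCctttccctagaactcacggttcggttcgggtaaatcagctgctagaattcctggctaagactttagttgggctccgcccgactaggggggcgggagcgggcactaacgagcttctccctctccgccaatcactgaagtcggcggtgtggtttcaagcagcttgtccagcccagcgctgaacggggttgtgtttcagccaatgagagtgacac
Socs3 (chr11:117969367-117969616, minus strand): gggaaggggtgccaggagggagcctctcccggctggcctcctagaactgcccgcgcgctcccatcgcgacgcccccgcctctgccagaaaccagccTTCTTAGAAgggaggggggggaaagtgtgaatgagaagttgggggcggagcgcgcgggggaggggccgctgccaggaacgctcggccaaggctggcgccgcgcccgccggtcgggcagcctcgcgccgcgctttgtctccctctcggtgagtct
The Socs1 window held 2 overlapping ISRE-type matches that begin 83 and 77 bases before the start. Stat2 held 1 such match 222 bases before the start, on the opposite strand, and Socs3 held 1 GAS-type match 154 bases before it. No match to either motif lay in the windows of Ifngr1, Ifngr2, Jak1, Jak2 or Stat3. Among 32536 distinct promoter windows of this length, 2.98% held the ISRE-type motif and 7.04% the GAS-type motif. A match describes these letters only, and binding was not tested.

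Sin3b itself, which checks the genotype, was lower in every Sin3Bsg1 library (33.6 to 39.4 CPM, counts scaled to a common library size) than in every sgCtrL library (80.4 to 95.6 CPM). The untreated libraries held 29683181 to 32311721 counts each and those of the second experiment 18128055 to 27056903. Each of the 9 genes had at least 62 counts in each library, while some of the other genes described below had fewer. All 7 ductal epithelium markers exceeded 1 CPM in each group. Of 6 leukocyte markers only Cd68 did, and none of 3 endothelium markers. Of 5 fibroblast markers Pdgfra and Pdgfrb did, with group means of 25.1 to 233 CPM and 6.06 to 35.0 CPM, while Dcn and Lum stayed near 0. Pdgfra was 85.7 and 86.5 CPM in untreated sgCtrL and 24.2 and 25.9 CPM in untreated Sin3Bsg1 cells. The summed ductal markers moved with genotype in the untreated cells, from 4733 to 4756 CPM in sgCtrL to 6355 to 6401 CPM in Sin3Bsg1, as did the 5 fibroblast markers, from 99.8 to 100.0 CPM down to 30.1 to 33.2 CPM. In the second experiment the ductal sum was 3182 to 3211 CPM in sgCtrL and 3422 to 3536 CPM in Sin3Bsg1 without IFNγ, and 3285 to 3830 CPM and 4332 to 4569 CPM with IFNγ. The fibroblast sum was 261 to 268 CPM and 223 to 234 CPM without IFNγ. With IFNγ it was 184 to 186 CPM and 160 to 171 CPM, so that both sums separated the genotypes in each comparison. Single ductal markers differed. Without IFNγ Krt7 and Cdh1 were higher in Sin3Bsg1, with log2 fold changes of 1.05 and 0.92 (edgeR adjusted p = 2.22e-07 and 1.25e-07). Krt18 and Sox9 were higher at 0.17 and 0.22 (edgeR adjusted p = 0.037 and 0.0147). Krt19, Krt8 and Epcam did not pass there (edgeR adjusted p = 0.556, 0.694 and 0.591). The 2 expressed fibroblast markers moved in opposite directions in the second experiment. Pdgfra was lower in Sin3Bsg1, with log2 fold changes of -0.26 without and -0.21 with IFNγ (edgeR adjusted p = 3.60e-04 and 0.00210). Pdgfrb was higher, at 0.19 and 0.27 (edgeR adjusted p = 0.0338 and 0.00594). The part of these markers in the values below was not tested. In bulk RNA fewer cells of a kind and less RNA per cell cannot be told apart. Replicate 1 of sgCtrL with IFNγ stood apart from its 2 replicates (a mean chi-square of 22.0 and 18.2 per gene with them, and 4.03 between them), so results of the 9 genes that rest on it are given with and without it. Part of the exon bases of Jak1 (18.0%, with Raver2), Socs1 (12.4%) and Socs3 (11.8%) overlap genes on the opposite strand. The same holds for Stat3 (6.89%, with Gm46295 and Stat5a) and Jak2 (3.55%). The strand setting of the counting is not given in the sources used here.

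Levels were first compared between the genes on a scale corrected for gene length (TPM). In untreated sgCtrL cells Stat3 (162 ± 1.65 TPM) and Ifngr1 (160 ± 4.29 TPM) led with overlapping libraries (SD, n = 2), followed by Socs3, Jak1, Ifngr2, Jak2 and Ptpn2. Stat2 (5.43 ± 0.306 TPM) and Socs1 (3.60 ± 0.0421 TPM) were the lowest. The order was the same in sgCtrL cells without IFNγ in the second experiment, where Stat3 averaged 194 ± 3.58 TPM, Ifngr1 152 ± 4.40 TPM, Stat2 4.20 ± 0.0705 TPM and Socs1 2.56 ± 0.0916 TPM (SD, n = 3). In untreated Sin3Bsg1 cells Ifngr1 (161 ± 2.93 TPM) stood above Stat3 (134 ± 4.90 TPM, SD, n = 2) with no overlap, and in Sin3Bsg1 cells without IFNγ the libraries of Ifngr2 and Jak2 overlapped. With IFNγ the lower end of the order was compressed. Stat2 averaged 56.1 ± 7.65 TPM in sgCtrL and 57.3 ± 2.22 TPM in Sin3Bsg1 (SD, n = 3), and its libraries overlapped those of Jak2 in both genotypes. Socs1 reached 43.4 ± 4.42 TPM in sgCtrL and 46.4 ± 0.347 TPM in Sin3Bsg1, above Ptpn2, with overlap in sgCtrL only, and its libraries overlapped those of Ifngr2 in Sin3Bsg1. Stat3, Ifngr1, Socs3 and Jak1 kept ranks 1 to 4 in that order in both genotypes. Jak2 was lower in the untreated experiment (28.4 to 29.3 TPM in sgCtrL) than in the second one without IFNγ (50.7 to 52.3 TPM), a difference between separately processed tables that was not tested.

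**Figure D1:**
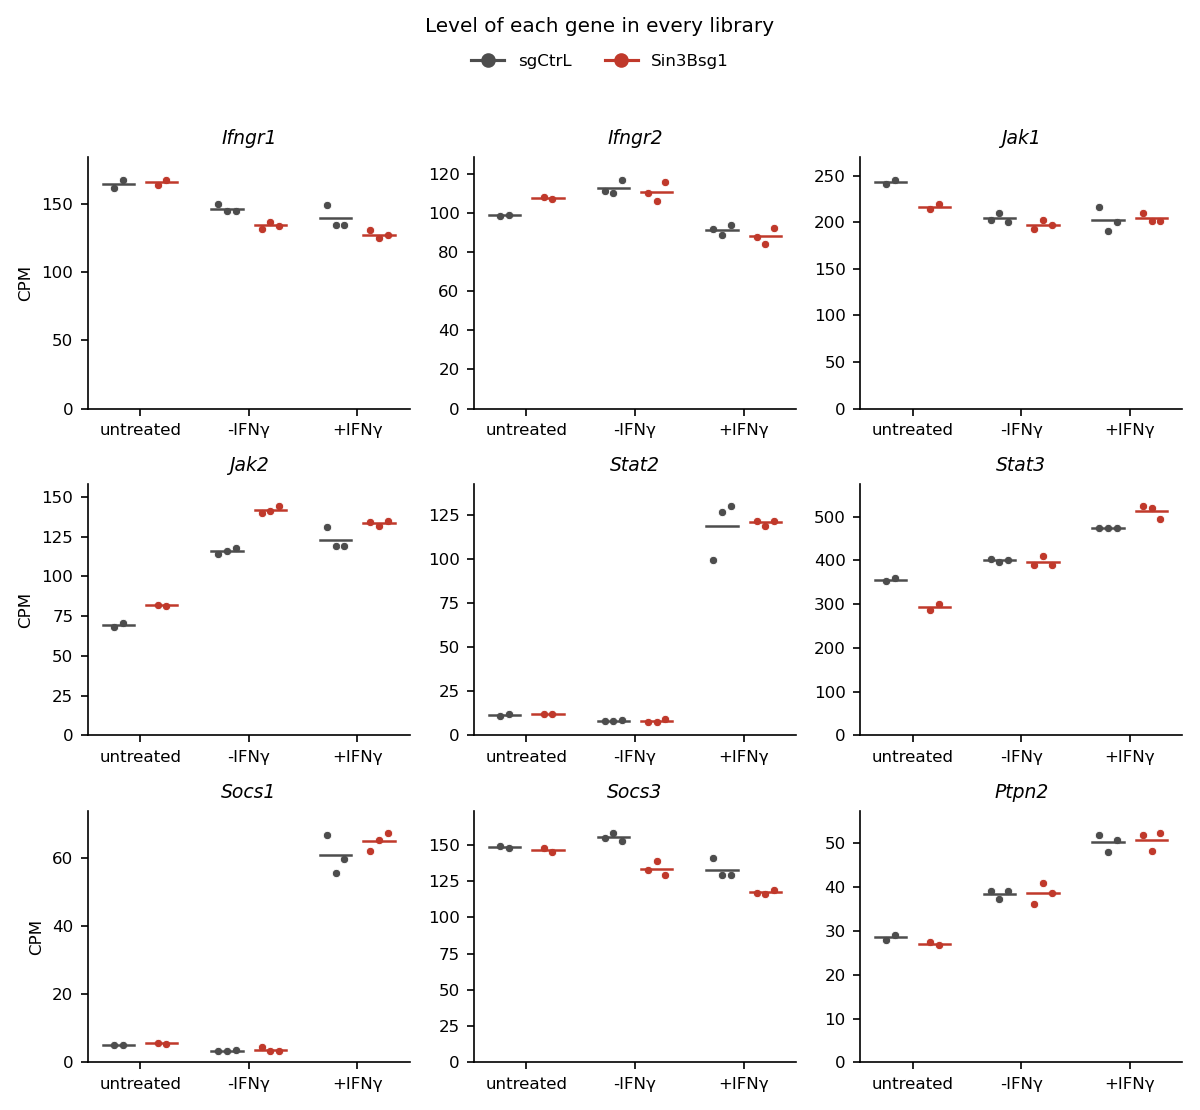
Level of each of the 9 genes in CPM (linear axis from 0) in all 16 libraries, as points by treatment and genotype, with the group mean as a bar. Stat2 and Socs1 are high only in the 6 libraries with IFNγ, where Stat2 lies at 99.9 to 130 CPM, and Jak2 is higher in Sin3Bsg1 than in sgCtrL without IFNγ with no overlap.

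The first question was how the pathway responds to IFNγ in each genotype. Of the 9 genes, 6 changed in sgCtrL cells (edgeR quasi-likelihood test, adjusted p under 0.05), against 30.2% of all genes tested, with 4 higher (15.7% of all genes) and 2 lower (14.5%). In Sin3Bsg1 cells 6 changed as well, again 4 higher (16.1% of all genes) and 2 lower (12.3%), against 28.4% of all genes tested. Libraries with and without IFNγ did not overlap for 7 genes in sgCtrL, against 41.5% of all genes, and for 8 in Sin3Bsg1, against 45.4%. The median log2 fold change was 0.084 over the 9 genes and -0.00062 over all genes in sgCtrL, and 0.048 against 0.0052 in Sin3Bsg1. Each genotype was compared with its own libraries without IFNγ, and the same libraries also enter the comparisons between genotypes.

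Socs1, the feedback inhibitor of JAK activity, showed the largest response. Without IFNγ its level was 3.34, 3.34 and 3.53 CPM in sgCtrL and 4.57, 3.31 and 3.23 CPM in Sin3Bsg1. IFNγ brought it to 66.9, 55.7 and 59.9 CPM in sgCtrL and to 62.2, 65.5 and 67.3 CPM in Sin3Bsg1, so that libraries with and without IFNγ lay far apart. Socs1 rose 17.8-fold in sgCtrL (log2 fold change 4.16, SE 0.110, edgeR adjusted p = 3.86e-14) and 17.4-fold in Sin3Bsg1 (log2 fold change 4.12, SE 0.104, edgeR adjusted p = 2.17e-14). It ranked 119 and 114 from the top of the 14913 genes tested, in that order. The levels without IFNγ rested on 62 to 120 counts per library.

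Stat2, the partner of IRF9, responded almost as strongly. It stood at 8.36, 8.39 and 8.56 CPM in sgCtrL and at 7.88, 7.61 and 9.07 CPM in Sin3Bsg1 without IFNγ, with no separation of the genotypes. With IFNγ the sgCtrL libraries reached 99.9, 127 and 130 CPM and the Sin3Bsg1 libraries 122, 119 and 122 CPM. The value of 99.9 CPM belongs to the sgCtrL library that stood apart from its replicates. Stat2 rose 14.1-fold in sgCtrL (log2 fold change 3.82, SE 0.0986, edgeR adjusted p = 2.99e-14) and 14.8-fold in Sin3Bsg1 (log2 fold change 3.89, SE 0.0968, edgeR adjusted p = 1.76e-14). Without that library the log2 fold change in sgCtrL was 3.92.

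Ptpn2, the phosphatase of the pathway, rose modestly. Its values without IFNγ were 39.0, 37.2 and 39.0 CPM in sgCtrL and 36.1, 40.8 and 38.7 CPM in Sin3Bsg1. With IFNγ they were 51.8, 47.9 and 50.8 CPM in sgCtrL and 51.9, 48.2 and 52.2 CPM in Sin3Bsg1, above every library without IFNγ. The increase was 1.30-fold in sgCtrL (log2 fold change 0.38, edgeR adjusted p = 1.21e-04) and 1.32-fold in Sin3Bsg1 (0.40, edgeR adjusted p = 6.99e-05). Stat3 rose by a smaller factor. In sgCtrL it went from 404, 397 and 400 CPM to 474, 474 and 473 CPM, and in Sin3Bsg1 from 390, 409 and 389 CPM to 523, 520 and 494 CPM. The groups did not overlap in either genotype, and the rise was 1.18-fold in sgCtrL (log2 fold change 0.24, edgeR adjusted p = 2.38e-04) and 1.29-fold in Sin3Bsg1 (0.37, edgeR adjusted p = 2.79e-06).

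Socs3, the inhibitor of gp130 receptors, moved the opposite way to Socs1. It fell from 155, 158 and 153 CPM to 141, 129 and 129 CPM in sgCtrL (log2 fold change -0.22, edgeR adjusted p = 0.00203) and from 133, 139 and 129 CPM to 117, 116 and 119 CPM in Sin3Bsg1 (-0.19, edgeR adjusted p = 0.00650). No library with IFNγ reached the range of its own genotype without IFNγ. The receptor chain Ifngr2 also fell. Its levels were 111, 110 and 117 CPM without and 91.8, 88.8 and 93.7 CPM with IFNγ in sgCtrL, and 110, 106 and 116 CPM without and 87.6, 84.1 and 92.4 CPM with IFNγ in Sin3Bsg1. The log2 fold change was -0.30 in sgCtrL (edgeR adjusted p = 3.20e-04) and -0.33 in Sin3Bsg1 (edgeR adjusted p = 1.31e-04).

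The ligand-binding chain Ifngr1 and both kinases did not pass the threshold in either genotype. Ifngr1 read 150, 145 and 145 CPM without and 149, 135 and 135 CPM with IFNγ in sgCtrL, and 132, 137 and 134 CPM without and 131, 125 and 127 CPM with IFNγ in Sin3Bsg1. Its log2 fold change was -0.069 in sgCtrL (95% interval -0.17 to 0.030) and -0.074 in Sin3Bsg1 (-0.17 to 0.025). Leaving out the sgCtrL library that stood apart gave -0.13 in sgCtrL, past the threshold (edgeR adjusted p = 0.0257). Jak1 levels overlapped throughout, at 203, 210 and 200 CPM without and 217, 191 and 200 CPM with IFNγ in sgCtrL, and at 193, 203 and 197 CPM without and 210, 202 and 201 CPM with IFNγ in Sin3Bsg1. The 95% intervals of its log2 fold change were -0.12 to 0.095 in sgCtrL and -0.057 to 0.15 in Sin3Bsg1. Jak2 had log2 fold changes of 0.084 in sgCtrL (-0.015 to 0.18) and -0.085 in Sin3Bsg1 (-0.18 to 0.012), and without the sgCtrL library that stood apart its value in Sin3Bsg1, -0.093, passed the threshold (edgeR adjusted p = 0.0464).

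**Figure D2:**
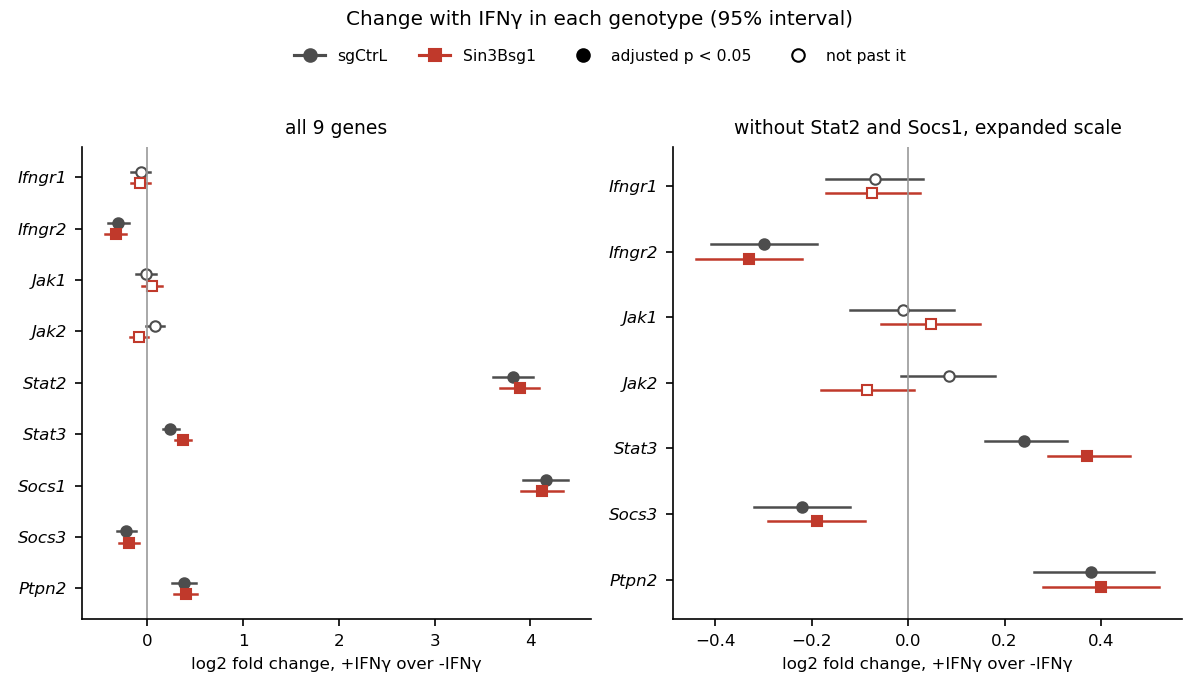
Log2 fold change with IFNγ over without IFNγ for each gene in sgCtrL (grey circles) and Sin3Bsg1 (red squares), with 95% intervals, all 9 genes on the left and 7 on an expanded scale on the right. Filled symbols mark an edgeR adjusted p under 0.05; Stat2 and Socs1 lie between 3.82 and 4.16, Ptpn2 and Stat3 above 0, and Ifngr2 and Socs3 below 0 in both genotypes.

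The second question was whether loss of Sin3B changes the pathway in unstimulated cells. In the untreated experiment 4 of the 9 genes differed between the genotypes, 2 higher (15.1% of all genes) and 2 lower (16% of all genes) in Sin3Bsg1, against 31.1% of all genes tested (edgeR adjusted p under 0.05). The groups did not overlap for 7 of the 9, against 63.3% of all genes tested, and the median absolute log2 fold change was 0.13 over the 9 genes and 0.14 over all genes.

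Stat3 showed the largest difference. It was 353 and 359 CPM in sgCtrL and 287 and 301 CPM in Sin3Bsg1, a log2 fold change of -0.28 (SE 0.0255, edgeR adjusted p = 4.07e-07). Jak1 was lower as well, with 241 and 246 CPM in sgCtrL and 214 and 220 CPM in Sin3Bsg1 (log2 fold change -0.16, SE 0.0261, edgeR adjusted p = 1.30e-04). Jak2, the kinase bound to IFNGR2, was higher, from 68.3 and 70.7 CPM in sgCtrL to 82.3 and 81.3 CPM in Sin3Bsg1 (log2 fold change 0.23, SE 0.0390, edgeR adjusted p = 2.00e-04). The IFNGR2 chain itself was higher, with 98.2 and 99.1 CPM against 108 and 107 CPM (log2 fold change 0.13, SE 0.0338, edgeR adjusted p = 0.00818), a call that was lost with DESeq2 (adjusted p = 0.068) or without replicate 1 of sgCtrL (edgeR adjusted p = 0.054).

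None of the 3 feedback inhibitors passed the threshold in the untreated cells. Socs1 was 5.14 and 5.07 CPM in sgCtrL and 5.79 and 5.34 CPM in Sin3Bsg1 (95% interval of the log2 fold change -0.19 to 0.44). Socs3 was 149 and 148 CPM against 148 and 145 CPM (-0.079 to 0.048), and Ptpn2 28.0 and 29.1 CPM against 27.4 and 26.8 CPM (-0.22 to 0.066). These intervals leave room for a change of Socs1 by up to 0.44 on the log2 scale and are narrower for Socs3. Ifngr1 was level at 162 and 168 CPM against 164 and 168 CPM (-0.055 to 0.073). Stat2 read 11.2 and 12.1 CPM against 12.2 and 12.4 CPM (-0.13 to 0.29).

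In the IFNγ experiment, 2 of the 9 genes differed between the genotypes without IFNγ, against 17.2% of all genes tested (edgeR adjusted p under 0.05). Of these 1 was higher in Sin3Bsg1 (7.89% of all genes) and 1 lower (9.33%). With IFNγ 1 of the 9 differed, against 16.5% of all genes, and it was lower, as were 7.9% of all genes, while 8.62% were higher. The genotypes did not overlap for 3 of the 9 genes without IFNγ, against 39.2% of all genes, and for 4 with IFNγ, against 30.4%. Jak2 was 114, 116 and 118 CPM in sgCtrL and 140, 141 and 144 CPM in Sin3Bsg1 without IFNγ, a log2 fold change of 0.29 (SE 0.0460, edgeR adjusted p = 3.13e-04). With IFNγ its levels were 131, 119 and 119 CPM in sgCtrL and 134, 132 and 135 CPM in Sin3Bsg1, and the difference of 0.12 (95% interval 0.025 to 0.22) did not pass the threshold (edgeR adjusted p = 0.0825). The highest sgCtrL value, 131 CPM, came from the library that stood apart, and without it the difference was 0.18 (edgeR adjusted p = 0.00257). Every Sin3Bsg1 library thus lay above every sgCtrL library for Jak2 in untreated cells, without IFNγ and with IFNγ.

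Socs3 was lower in Sin3Bsg1 in both states of the second experiment. Without IFNγ every Sin3Bsg1 library (129 to 139 CPM) lay below every sgCtrL library (153 to 158 CPM), a log2 fold change of -0.22 (SE 0.0472, edgeR adjusted p = 0.00421). With IFNγ the ranges were 116 to 119 CPM and 129 to 141 CPM, and the log2 fold change was -0.18 (SE 0.0474, edgeR adjusted p = 0.0135). It was -0.13 (edgeR adjusted p = 0.0395) without the sgCtrL library that stood apart, and the call was lost when only the 6 libraries with IFNγ were fitted (-0.19, edgeR adjusted p = 0.0654). In the untreated experiment the corresponding interval, -0.079 to 0.048, did not reach these values.

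Stat3, lower in the untreated Sin3Bsg1 cells, did not differ by more than the spread in the second experiment without IFNγ (log2 fold change -0.015, 95% interval -0.10 to 0.070). With IFNγ every Sin3Bsg1 library (494 to 523 CPM) exceeded every sgCtrL library (473 to 474 CPM), with a log2 fold change of 0.11 (95% interval 0.028 to 0.20) that missed the threshold (edgeR adjusted p = 0.0677). It passed under 3 of 18 alternatives. These were DESeq2 (adjusted p = 0.0458), leaving out the sgCtrL library that stood apart (0.13, edgeR adjusted p = 0.0246) and leaving out replicate 3 of Sin3Bsg1 with IFNγ. Under the others it did not pass (edgeR adjusted p up to 0.253). Ifngr1 was lower in every Sin3Bsg1 library in both states, by -0.12 without IFNγ (95% interval -0.22 to -0.024, edgeR adjusted p = 0.0861) and by -0.13 with IFNγ (-0.23 to -0.029, edgeR adjusted p = 0.0751), and neither passed. Without the sgCtrL library that stood apart the first value passed (-0.11, edgeR adjusted p = 0.0331) and the second fell to -0.068 (edgeR adjusted p = 0.273).

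For Socs1, Stat2 and Ptpn2 the genotypes overlapped in both states. Socs1 differed by 0.13 without IFNγ (95% interval -0.19 to 0.45) and by 0.10 with IFNγ (-0.068 to 0.26). Stat2 differed by -0.043 (-0.30 to 0.21) and 0.024 (-0.14 to 0.19), and Ptpn2 by 0.0037 (-0.12 to 0.13) and 0.018 (-0.10 to 0.14). With all libraries, the intervals with IFNγ thus reach an increase of 0.26 for Socs1 and 0.19 for Stat2 on the log2 scale. The library that stood apart held the highest Socs1 and the lowest Stat2 value of sgCtrL with IFNγ. Leaving out each library in turn gave differences of 0.038 to 0.18 for Socs1 with IFNγ, and none passed the threshold. Without the library that stood apart Stat2 differed by -0.072 (edgeR adjusted p = 0.336). Ifngr2, at -0.028 (-0.14 to 0.081) and -0.055 (-0.16 to 0.055), and Jak1, at -0.049 (-0.16 to 0.056) and 0.0096 (-0.10 to 0.12), also overlapped in both states.

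**Figure D3:**
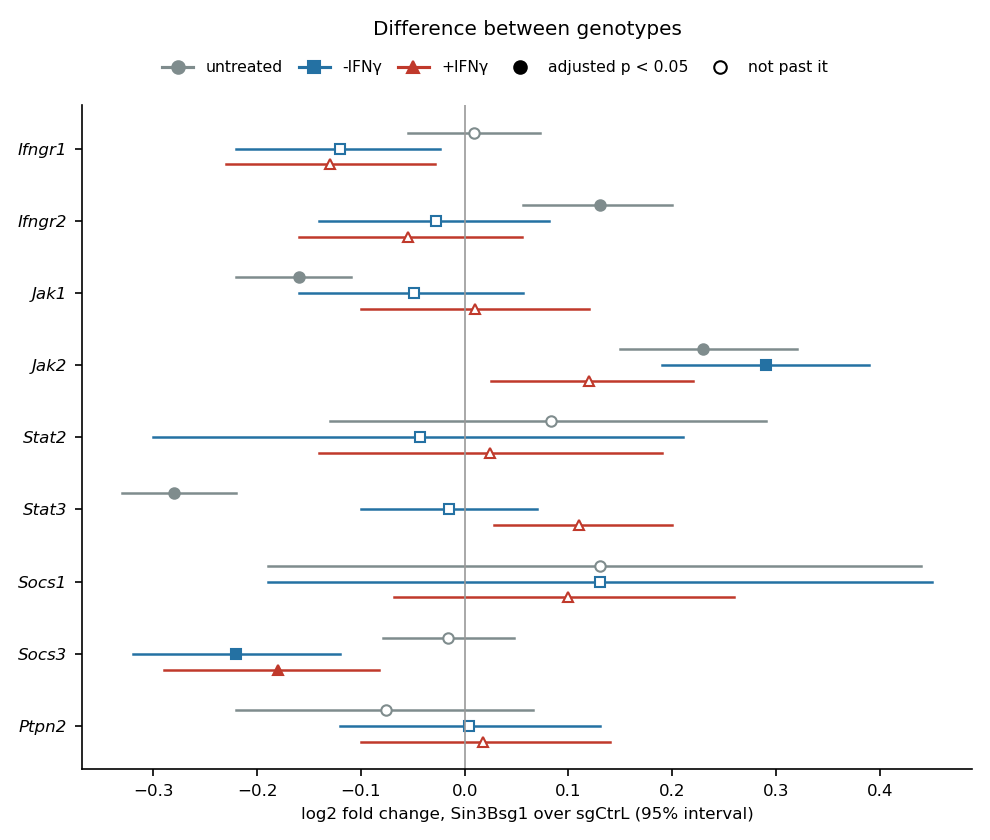
Log2 fold change of Sin3Bsg1 over sgCtrL for the 9 genes in untreated cells (grey circles), without IFNγ (blue squares) and with IFNγ (red triangles), with 95% intervals; filled symbols mark an edgeR adjusted p under 0.05. Jak2 lies above 0 in all 3 comparisons (0.23, 0.29 and 0.12), Socs3 below 0 in the second experiment, and Stat3 below 0 in untreated cells (-0.28).

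The third question was whether the response to IFNγ itself depends on Sin3B, which the interaction of genotype and IFNγ tests directly. None of the 9 genes passed (edgeR adjusted p from 0.820 to 0.999), against 0.114% of all genes tested (0.0805% with a larger and 0.0335% with a smaller value in Sin3Bsg1), while 2 of the 9 had an unadjusted p under 0.05, and DESeq2 called none either. Jak2 came closest, with an interaction of -0.17 (95% interval -0.31 to -0.031, edgeR adjusted p = 0.820). Its values were higher with IFNγ in all sgCtrL libraries and lower with IFNγ in all Sin3Bsg1 libraries. In sgCtrL they were 114, 116 and 118 CPM without and 131, 119 and 119 CPM with IFNγ, and the 131 CPM came from the library that stood apart. Leaving out each library in turn gave a Jak2 change of 0.025 to 0.11 in sgCtrL and an interaction of -0.21 to -0.12, and none passed. For Stat3 the interaction was 0.13 (0.0073 to 0.25, edgeR adjusted p = 0.907). The induction of Socs1 differed between the genotypes by -0.036 (-0.39 to 0.32), that of Stat2 by 0.068 (-0.23 to 0.37) and that of Ptpn2 by 0.015 (-0.16 to 0.19). An induction of Socs1 in Sin3Bsg1 that is smaller by up to 0.39 or larger by up to 0.32 on the log2 scale therefore lies within the interval. Without the sgCtrL library that stood apart, the interaction was 0.038 for Socs1 and -0.039 for Stat2 (edgeR adjusted p = 0.972 and 0.94).

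Ratios of TPM within a library compare the inhibitors with the kinases. Without IFNγ there were 0.0490 to 0.0509 Socs1 transcripts per Jak2 transcript in sgCtrL and 0.0382 to 0.0554 in Sin3Bsg1. With IFNγ the ratio was 0.798 to 0.869 in sgCtrL and 0.792 to 0.845 in Sin3Bsg1, so the Socs1 transcript came close to that of Jak2 in both genotypes, with overlapping ranges. Per Socs3 transcript, Socs1 rose from 0.0186 to 0.0202 to a range of 0.379 to 0.415 in sgCtrL, and from 0.0209 to 0.0301 to a range of 0.468 to 0.498 in Sin3Bsg1. In untreated cells this ratio was 0.0301 to 0.0302 in sgCtrL and 0.0323 to 0.0342 in Sin3Bsg1. The Socs1 to Socs3 ratio was thus higher in every Sin3Bsg1 library in all 3 settings, although the genotype difference of Socs1 itself passed in none. Without IFNγ and in untreated cells the ratio rested on 62 to 186 Socs1 counts per library. Socs1 per Jak2 was lower in untreated Sin3Bsg1 cells (0.112 to 0.120 against 0.122 to 0.128). Socs1 per Jak1 was higher there (0.0410 to 0.0456 against 0.0348 to 0.0360) and overlapped in the second experiment. The share of other gene pairs that separate was not computed. The balance of the kinases also separated the genotypes. Jak2 per Jak1 was 0.282 to 0.285 in sgCtrL and 0.367 to 0.381 in Sin3Bsg1 in untreated cells, 0.548 to 0.583 and 0.691 to 0.724 without IFNγ, and 0.588 to 0.615 and 0.630 to 0.669 with IFNγ. Ifngr2 per Ifngr1 was 0.423 to 0.462 without and 0.352 to 0.396 with IFNγ in sgCtrL, and 0.439 to 0.496 and 0.382 to 0.414 in Sin3Bsg1. These ratios are descriptions without a test.

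**Figure D4:**
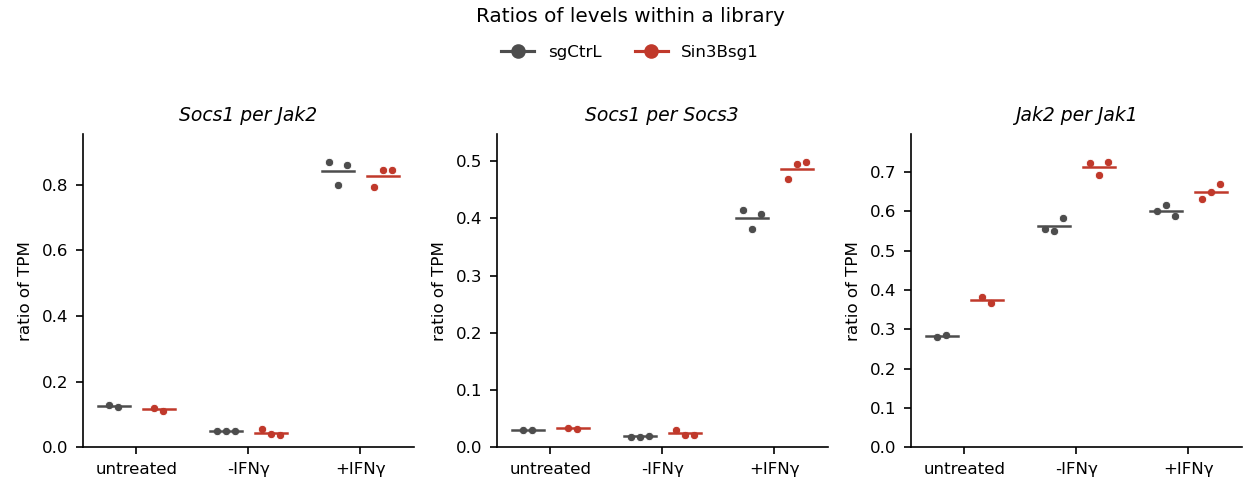
Ratio of TPM of Socs1 to Jak2, Socs1 to Socs3 and Jak2 to Jak1 in each of the 16 libraries (points, with group means as bars; linear axes from 0) by treatment and genotype. With IFNγ, Socs1 per Socs3 is 0.379 to 0.415 in sgCtrL and 0.468 to 0.498 in Sin3Bsg1. Socs1 per Socs3 and Jak2 per Jak1 are both higher in Sin3Bsg1 in all 3 settings. Socs1 per Jak2 is lower in Sin3Bsg1 in untreated cells, and the genotypes overlap in the other settings.

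Of 29 other receptors, kinases, STATs, SOCS proteins and inhibitors of these pathways, 27 were tested in untreated cells, and 4 were higher and 12 lower in Sin3Bsg1, where 15.1% and 16% of all genes were. In the second experiment 28 were tested. Without IFNγ 2 were higher and 6 lower, where 7.89% and 9.33% of all genes were. With IFNγ 4 were higher and 4 lower, where 8.62% and 7.9% of all genes were. Of 8 other receptors, 7 were lower and 1 was higher in untreated cells, with a median log2 fold change of -0.26 against 0.0024 over all genes. In the second experiment 3 were lower, 1 was higher and 4 did not pass in either state, with medians of -0.16 without and -0.15 with IFNγ. Osmr, the oncostatin M receptor, was lower in Sin3Bsg1 at -0.78 in untreated cells, -0.34 without IFNγ and -0.44 with IFNγ (edgeR adjusted p = 9.53e-10, 8.77e-05 and 7.81e-06). Lifr, the receptor for LIF, was lower at -0.51, -0.35 and -0.32 (edgeR adjusted p = 9.41e-10, 6.55e-05 and 1.89e-04). Both pair with gp130, the chain on which SOCS3 acts. Il6ra, which binds IL-6, was lower in untreated cells (-0.66, edgeR adjusted p = 0.00815), and its values of -0.20 and 0.12 in the second experiment did not pass. The first call was lost without replicate 1 of sgCtrL (edgeR adjusted p = 0.0729) or replicate 2 of Sin3Bsg1 (edgeR adjusted p = 0.0528). Ifnlr1, the chain of the type III interferon receptor, was higher at 0.54, 0.55 and 0.78 (edgeR adjusted p = 3.77e-04, 0.0438 and 0.00928). The call without IFNγ was lost on leaving out any of the 6 libraries of that comparison or replicate 3 of sgCtrL with IFNγ (edgeR adjusted p from 0.050 to 0.139), and the call with IFNγ with only its 6 libraries (0.77, edgeR adjusted p = 0.066).

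Among other genes that respond to interferon, Irf9, the partner of STAT2, rose with IFNγ from 12.1 to 13.0 CPM to a range of 59.4 to 63.6 CPM in sgCtrL and from 12.4 to 15.0 CPM to a range of 71.3 to 75.7 CPM in Sin3Bsg1. It was higher in Sin3Bsg1 with IFNγ (log2 fold change 0.26, SE 0.0598, edgeR adjusted p = 0.00731), while its interaction did not pass (0.13, edgeR adjusted p = 0.984). Stat2 per Irf9 was therefore 1.11 to 1.47 in sgCtrL and 1.08 to 1.15 in Sin3Bsg1 with IFNγ, in TPM, and the lowest sgCtrL value came from the library that stood apart. Usp18, an inhibitor of type I interferon signaling, had 0 to 3 counts per library without IFNγ in the second experiment and 77 to 139 counts with IFNγ (edgeR adjusted p = 2.26e-07 in sgCtrL and 5.34e-08 in Sin3Bsg1). Ifnar2, a type I interferon receptor chain, rose by 0.53 and 0.60 on the log2 scale in sgCtrL and Sin3Bsg1 (edgeR adjusted p = 2.82e-06 and 5.93e-07), and Jak3 fell, with log2 fold changes of -0.42 and -0.34 (edgeR adjusted p = 1.39e-04 and 8.07e-04). In untreated cells Ifnar2 was lower in Sin3Bsg1 (-0.19, edgeR adjusted p = 0.0208), a call lost under 3 of 9 alternatives, DESeq2 among them. Ifnlr1 fell with IFNγ in sgCtrL (-0.65, edgeR adjusted p = 0.0177), a call lost under 4 of 18 alternatives. Its value in Sin3Bsg1 was -0.42 and did not pass (edgeR adjusted p = 0.0813).

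Within the SOCS family, Socs2, an inhibitor of growth hormone signaling, rose with IFNγ by 0.46 in sgCtrL and 0.36 in Sin3Bsg1 (edgeR adjusted p = 0.00199 and 0.0144). Between the genotypes it was higher in untreated Sin3Bsg1 cells (0.25, edgeR adjusted p = 0.0257) and lower in the second experiment (-0.39 and -0.50, edgeR adjusted p = 0.0140 and 0.00190). The untreated call was lost with DESeq2 (adjusted p = 0.142) and without replicate 1 of either genotype, and the call without IFNγ was lost without replicate 1 or 3 of either genotype (-0.34 to -0.38). The rise in Sin3Bsg1 was lost without replicate 2 with IFNγ (0.23, edgeR adjusted p = 0.122) or replicate 3 without IFNγ (0.32, edgeR adjusted p = 0.0568). Socs4 was higher in untreated Sin3Bsg1 cells (0.30, edgeR adjusted p = 9.01e-04). Cish rose with IFNγ in Sin3Bsg1 (1.45, edgeR adjusted p = 0.00563), and its value of 1.0 in sgCtrL missed the threshold (edgeR adjusted p = 0.0608), although the libraries with and without IFNγ did not overlap in either genotype. The Sin3Bsg1 libraries with IFNγ held 33, 69 and 36 counts, and without the library of 69 counts the value was 1.05 (edgeR adjusted p = 0.0552). Ptpn6, the phosphatase SHP-1, was higher in Sin3Bsg1 with IFNγ (0.56, edgeR adjusted p = 0.0126), a call lost without replicate 2 or 3 of Sin3Bsg1 with IFNγ or with only the 6 libraries of the comparison (0.49 to 0.55). No gene of these lists passed the interaction test.

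**Figure D5:**
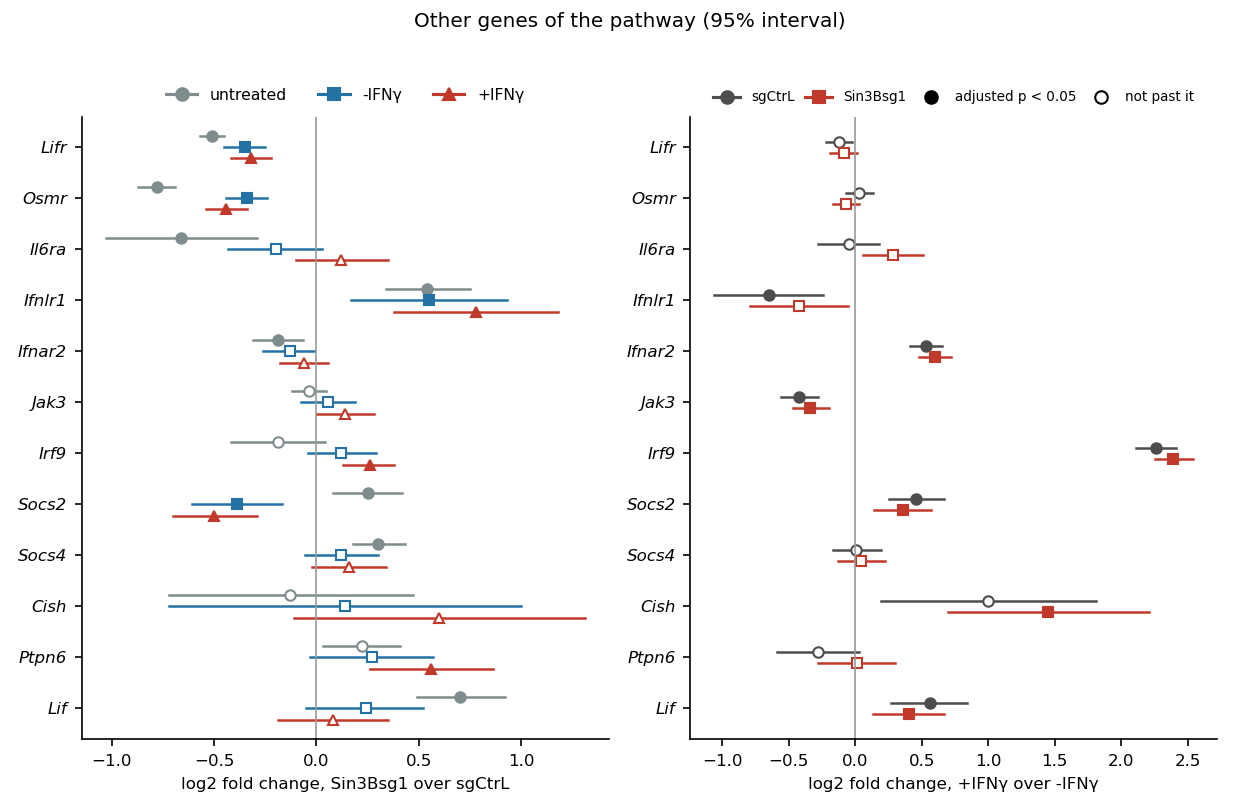
Log2 fold changes of 12 other genes of the pathway with 95% intervals, between genotypes on the left (untreated, without and with IFNγ) and with IFNγ in each genotype on the right; filled symbols mark an edgeR adjusted p under 0.05. Osmr and Lifr lie below 0 in all 3 genotype comparisons, Ifnlr1 above 0, and Irf9 lies at 2.26 and 2.39 with IFNγ; Usp18 is left out because it is near 0 counts without IFNγ.

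The ligands were examined as transcripts of the same cells. Ifng, Ifnb1 and Osm had 0 counts in all 16 libraries, which leaves room for levels too low to be counted. Il11 had at most 4 counts and Il6 at most 22. Lif, the ligand of LIFR, was 9.84 and 11.6 CPM in untreated sgCtrL and 16.7 and 18.1 CPM in untreated Sin3Bsg1 cells (log2 fold change 0.70, SE 0.101, edgeR adjusted p = 4.86e-05). It rose with IFNγ by 0.56 in sgCtrL and 0.40 in Sin3Bsg1 (edgeR adjusted p = 0.00483 and 0.0275). Leaving out replicate 1 or 2 of Sin3Bsg1 without IFNγ, or replicate 2 or 3 of Sin3Bsg1 with IFNγ, ended the call in Sin3Bsg1 (0.35 to 0.41). Between the genotypes in the second experiment Lif did not pass, at 0.24 without IFNγ (edgeR adjusted p = 0.265) and 0.081 with IFNγ (edgeR adjusted p = 0.735).

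The genes whose pattern over the 12 libraries of the second experiment was most like that of Socs1 included Psmb10, an immunoproteasome subunit, and Col8a1, a collagen (Pearson correlations of log2 CPM of 0.999 and 0.998 among 10502 genes). Over 0.95 there were 416 such genes, and the points share the contrast of libraries with and without IFNγ. For Socs3 the most similar genes were Clstn1 (0.992), Isyna1 (0.990) and Septin9 (0.988), and 68 genes exceeded 0.95.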

How the data were processed

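Gene expression was measured by RNA-seq in 16 libraries. For each experiment the authors deposited a table of estimated counts by gene, not all whole and not normalized. The methods name HISAT2, mm9 and featureCounts, and the submitters' processing notes name fastp, HISAT2, StringTie, DESeq2 and mm39. Versions, annotation and strand setting are not given in the sources used here. Columns headed lacz3 were read as sgCtrL, because no other guide than Sin3Bsg1 stands beside them in either table. The mean columns of the authors equalled the means of the replicates and were not used.

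Counts were rounded, and 324 assembled loci without a gene (0.615 to 0.677% of counts in the untreated table) were left out. The tables were fitted separately with edgeR 4.0.16 in R 4.3.3 (TMM, filterByExpr, glmQLFit and glmQLFTest, two-sided), with Benjamini-Hochberg adjustment over 14589 and 14913 genes and a threshold of 0.05. The biological coefficient of variation was 2.84% and 6.78%. The 12 libraries of the IFNγ experiment shared 1 estimate of the spread. SE and 95% intervals come from the quasi-likelihood F statistic and cover the spread between libraries. TPM used the deposited gene lengths, and exon overlaps came from a GENCODE annotation matched by symbol. Alternatives were relative log expression size factors, DESeq2 1.42.0, other count filters, a replicate block, leaving out each library, and fitting only the libraries of a contrast. All 9 genes were named; 35 other pathway genes were counted, and those past the threshold with an absolute log2 fold change of at least 0.3 in a comparison were named. Of the 3 genes each most like Socs1 and Socs3 (mean of at least 5 CPM, pseudocount 0.5 CPM), 1 is not reported here. The genes, lists and tests were chosen with earlier results of these data known. Tables and figures used Python 3.11.15, pandas 2.3.3 and matplotlib 3.10.9.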

Additional observations from a re-analysis of the deposited data

Results flagged for a closer look

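Genes were flagged where the genotypes did not overlap in untreated cells, nor, in the opposite direction, in a state of the second experiment. This held for 1 of the 9 genes and for 4 other pathway genes. The difference between the experiments was not tested for any of them, and the share over all genes was not computed. Differences of opposite sign were not flagged where libraries overlapped in either experiment. Examples are Ifngr2 (0.13 in untreated cells, -0.028 without and -0.055 with IFNγ) and Jak1 (-0.16 in untreated cells and 0.0096 with IFNγ). Stat3 was lower in both untreated Sin3Bsg1 libraries than in both sgCtrL libraries (log2 fold change -0.28) and higher in every Sin3Bsg1 library with IFNγ, by 0.11, which missed the threshold (edgeR adjusted p = 0.0677). Without IFNγ, the state closest to the untreated cells, the Stat3 libraries overlapped (-0.015). Stat5a, a STAT of cytokine and growth hormone signaling that is named here after its values were seen, was lower in untreated Sin3Bsg1 cells (-0.27, edgeR adjusted p = 1.69e-04) and higher in every Sin3Bsg1 library without IFNγ (0.24, edgeR adjusted p = 0.00895) and with IFNγ (0.23, edgeR adjusted p = 0.0124). The last call was lost without replicate 2 of sgCtrL with IFNγ, without replicate 1 of Sin3Bsg1 with IFNγ, and with only its 6 libraries. Exons of Stat3 and Stat5a overlap on opposite strands and the strand setting is not given, so their values may not be independent. The part of the overlap in these values was not tested. Socs2 was higher in untreated Sin3Bsg1 cells (0.25) and lower in every Sin3Bsg1 library of the second experiment, without IFNγ (-0.39) and with IFNγ (-0.50). Jak3 was lower by -0.037 in untreated Sin3Bsg1 cells and higher by 0.14 with IFNγ, and neither value passed the threshold of the edgeR test. Socs5, of the SOCS family and also named after its values were seen, was lower in untreated Sin3Bsg1 cells (-0.21, edgeR adjusted p = 2.25e-05), and its value without IFNγ was 0.10, with no overlap of the libraries (edgeR adjusted p = 0.351).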

How the results depend on the processing

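Of 54 results (9 genes in 6 comparisons), 19 passed the threshold, and 17 of these kept their direction and their call under every alternative. The others were Ifngr2 in untreated cells and Socs3 with IFNγ, as given above. Of the 35 that did not pass, 29 passed under no alternative. With IFNγ the number of the 9 genes that differed between genotypes, 1, became 2 with DESeq2, 2 with at least 10 counts in every library and 0 with only the 6 libraries of the contrast, and 1 to 3 on leaving out a library (3 without replicate 1 of sgCtrL with IFNγ, 2 without replicate 3 of Sin3Bsg1 with IFNγ). Over all genes, fitting only the 6 libraries gave 3996 in place of 2568 without IFNγ and 1500 in place of 2464 with IFNγ. For the interaction, 17 genes became 32 with DESeq2, 110 with no filter on low counts and 1 to 33 on leaving out a library, each of the 12 but replicate 2 of sgCtrL with IFNγ moving it by over 1.5 times. The cause of these shifts was not tested.

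Log2 fold changes that did not pass and changed sign on leaving out a library had these ranges: in untreated cells Ifngr1 -0.021 to 0.038; between genotypes without IFNγ Ifngr2 -0.065 to 0.0044, Stat2 -0.12 to 0.0051, Stat3 -0.038 to 0.0045, Socs1 -0.058 to 0.22 and Ptpn2 -0.038 to 0.049; between genotypes with IFNγ Jak1 -0.029 to 0.073, Stat2 -0.072 to 0.089 and Ptpn2 -0.013 to 0.055; with IFNγ over without, Jak1 -0.072 to 0.022 in sgCtrL and -0.00094 to 0.069 in Sin3Bsg1; for the interaction Ifngr1 -0.045 to 0.044, Ifngr2 -0.082 to 0.011, Stat2 -0.039 to 0.14, Socs1 -0.13 to 0.15, Socs3 -0.0064 to 0.080 and Ptpn2 -0.036 to 0.056. The Ptpn2 interaction was also -0.0071 with at least 10 counts in every library. In the IFNγ experiment, libraries of different groups with the same replicate number correlated at -0.0288 to 0.119 after removal of the group means. Those with different numbers correlated at -0.133 to 0.0602. In the untreated experiment the values were 0.0129 and -0.0129. These correlations are low, and pairing by replicate number was not tested. With the replicate block the 9 genes gave 4, 2, 1, 6, 6 and 0 calls, as without it, and over all genes 4675, 2511, 2389, 4400, 4207 and 13. The same alternatives were run for the other pathway genes after the data were seen: of 32 results past the threshold for named genes, 21 kept it under every alternative, none changed direction, and 0 were lost without replicate 1 of sgCtrL with IFNγ.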
